A study of Mus musculus with 20 samples.

Results

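The genes described here are 10 genes of slow muscle fibres: the troponin subunits Tnnt1, Tnni1 and Tnnc1, the myosin light chains Myl2 and Myl3, the calcium pump Atp2a2, the calsarcin Myoz2, the tropomyosin Tpm3, and the Z-disc proteins Csrp3 and Ankrd2. The genes were chosen with earlier results of these data known. Their probes were picked by gene name and not by measured values, and every array probe carrying one of these names was taken. This gave 15 of the 39429 probes on the array. Of these, 14 were tested, among 19231 probes for 15324 gene names, because their Cy5 signal was well above background on at least 10 of the 20 arrays. All 10 genes had a tested probe, and the brightest tested probe represents each gene.

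RNA came from the quadriceps, a large thigh muscle, of 6-week-old male C57BL/6J mice fasted for 2 h. The age given for their mothers was 8 weeks in both groups. The mothers of the mHFD mice were fed a diet with 40% of energy from fat, and those of the mLFD mice one with 10%, in both cases from 3 days before mating until the pups were weaned. After weaning, the offspring of both groups ate the low-fat diet and were caged singly. The diet of the mother was thus the treatment that separated the groups. Each group held 10 mice. Up to 4 of them could be siblings, and the labels do not say which, so the mice may not all be independent. Each sample, labelled with Cy5, was hybridised beside a Cy3-labelled pool of all the samples, and values are log2 ratios of the sample to the pool on an Agilent array of 60-base probes. Each of 5 slides carried 4 of the arrays, 2 per group, and 15523 to 23446 probes per array were well above background. Array position also separated the groups: on every slide the mHFD arrays lay at positions 1 and 3 and the mLFD arrays at 2 and 4.

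A muscle fibre contracts slowly or fast largely according to which versions of the thick and thin filament proteins it makes. In slow fibres, calcium binds troponin C, troponin I then releases its hold on actin, and troponin T passes the change to tropomyosin, while a slow calcium pump returns the calcium to its store. Several of the slow versions are shared with heart muscle, and the mouse quadriceps is built mainly of fast fibres with a small slow part. In whole muscle, fewer slow fibres and less of a transcript in each slow fibre cannot be told apart. The heart markers Myl7 and Tnni3 were not well above background on any array and Nppa on at most 9, so none of these 3 was tested. The other heart markers on the list, Myh6 and Tnnt2, were well above background on all 20 arrays and differed, mHFD minus mLFD, by -0.07 (SE 0.05) and -0.11 (SE 0.07) on the log2 scale, both at an adjusted limma p of 0.729.

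None of the 10 genes differed between the groups at an adjusted p of 0.05 (limma with Benjamini-Hochberg adjustment over all tested probes), where 0.0052% of all tested probes passed. Without adjustment 0 of the 10 had p under 0.05, against 7.14% of all probes (3.11% lower and 4.04% higher in mHFD). The mean was lower in mHFD for 6 genes and higher for 4, and 48.4% of all probes had a lower mean in mHFD. The median difference over the 10 genes, mHFD minus mLFD, was -0.11 on the log2 scale, beside 0.0029 over all probes. The genes varied widely between arrays: their median SD within groups was 0.359, beside 0.137 over all tested probes, and all 10 lay above that value. The number of arrays limits the precision, and the intervals below show how large a difference was still possible.

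**Figure D1:**
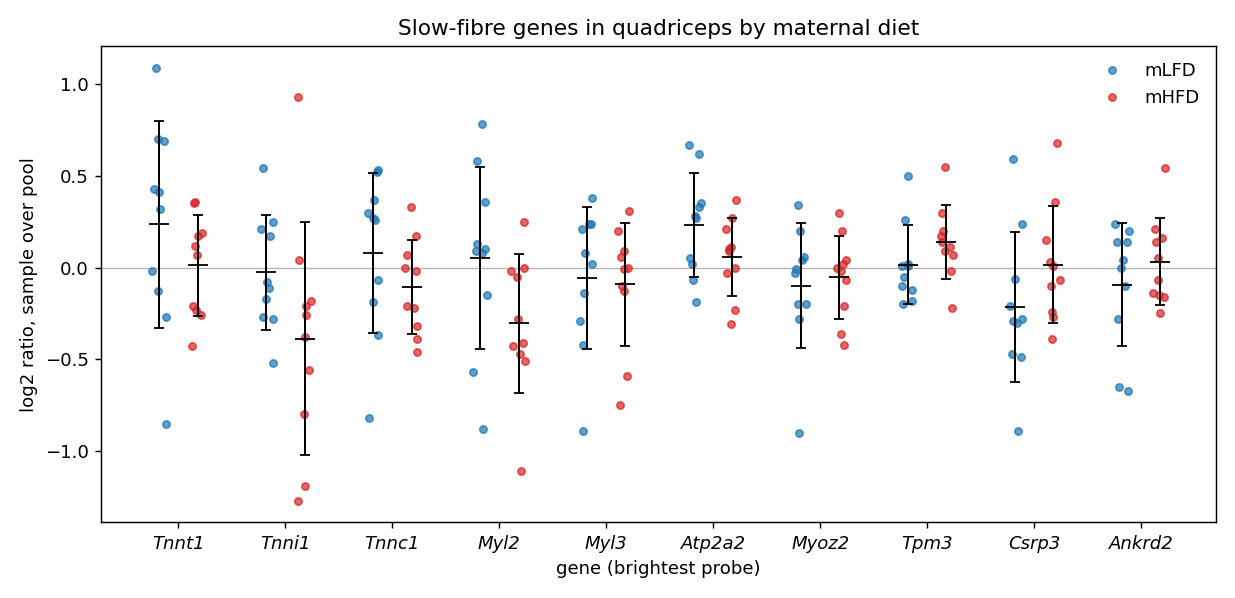
Log2 ratio of the sample to the pool (vertical axis) for the brightest probe of each of the 10 genes (horizontal axis). Each point is 1 array, 10 per group, and the bars give the mean and SD; the groups overlap for each gene, and Tnni1 spreads from -1.27 to 0.93 in mHFD.

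Of the troponins, Tnnt1, which anchors the troponin complex to tropomyosin, ranged in mHFD from -0.43 through a median of 0.10 to 0.36, and in mLFD from -0.85 through 0.36 to 1.09. The mLFD mice thus held both the lowest and the highest array, and the mHFD range lay inside theirs. The mHFD mean was 0.01 ± 0.28 and the mLFD mean 0.24 ± 0.56 (SD, n = 10 each), a difference of -0.22 (SE 0.18, 0.856-fold with a 95% interval of 0.663 to 1.11, limma adjusted p = 0.775). A second, dimmer Tnnt1 probe gave -0.27 (SE 0.17), and the probes correlated over the arrays with r = 0.80. With array position in the model the brightest gave -0.35. They lie on chromosome 7 of mouse build mm9, minus strand, at 4456265 to 4456324 and 4456172 to 4456231. Exons and UTRs are not given for probes, because no gene models of this build were used here.

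Tnni1, the inhibitory subunit, had the widest spread of the 10 genes. It ranged from -1.27 through a median of -0.32 to 0.93 in mHFD, and from -0.52 through -0.09 to 0.54 in mLFD. Its 4 lowest and its single highest value were thus mHFD arrays outside the mLFD range. The Tnni1 probe was dim, though well above background on all 20 arrays. Its median Cy5 signal was 254, and its lowest arrays, mHFD 7 and mHFD 8, had 59.4 and 96.2. The means were -0.39 ± 0.63 and -0.02 ± 0.31 (SD, n = 10 each), a difference of -0.36 (SE 0.20, 0.777-fold, interval 0.582 to 1.04, limma unadjusted p = 0.0838, adjusted p = 0.709), and -0.59 with the Cy5 signal alone. The probe is placed at 137705328 to 137706203 on the plus strand of chromosome 1, a span of 876 bases and so longer than the probe itself. Without mHFD 10, its highest array, the difference was -0.51 with an unadjusted p of 0.0046 in limma, which did not pass the adjustment (leaving out single arrays gave adjusted p-values of 0.552 to 0.872).

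Tnnc1, the calcium-binding subunit, ran from -0.46 through -0.11 to 0.33 in mHFD and from -0.82 through 0.27 to 0.53 in mLFD. It followed Tnnt1: 8 of 10 mHFD arrays lay below the mLFD mean, and the lowest array was again an mLFD one. The difference was -0.18 (SE 0.14, 0.88-fold, interval 0.715 to 1.08, limma adjusted p = 0.772). It was -0.43 with the Cy5 signal alone and -0.35 with the scanner software's log ratio. The probe lies on the plus strand of chromosome 14, from 32023360 to 32023776. It too was dim, with a median Cy5 signal of 194, and 78.1 on mLFD 4, its lowest array.

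The light chains wrap the lever arm of myosin, and both of these are also those of the heart ventricle. Myl2, the regulatory light chain, had the smallest p of the 10 genes. It ran from -1.11 through -0.35 to 0.25 in mHFD and from -0.88 through 0.10 to 0.78 in mLFD, and 9 of 10 mHFD arrays lay below the mLFD mean. The difference was -0.35 (SE 0.18, 0.782-fold, interval 0.606 to 1.01, limma unadjusted p = 0.0583, adjusted p = 0.689). Its probe lies at 122556732 to 122556791 on the plus strand of chromosome 5. A second Myl2 probe was well above background on 4 arrays and was not tested.

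Myl3, the essential light chain, ran from -0.75 through -0.01 to 0.31 in mHFD and from -0.89 through 0.05 to 0.38 in mLFD. The groups had nearly the same mean, -0.09 ± 0.33 against -0.06 ± 0.39 (SD, n = 10 each). The difference was -0.04 (SE 0.15), and its interval reached from 0.79-fold to 1.20-fold, with an adjusted p of 0.962 in limma. Values of -0.11 (Cy5 alone, or position in the model) to 0.15 (without slide 4) came from the other settings. The probe lies at 110672238 to 110672297 on the plus strand of chromosome 9.

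Atp2a2 encodes the pump that returns calcium to the sarcoplasmic reticulum in slow and heart muscle. Its log ratio ran from -0.31 through 0.09 to 0.37 in mHFD and from -0.19 through 0.28 to 0.67 in mLFD, so that 2 mHFD arrays lay below the mLFD range and the highest arrays were mLFD. The difference was -0.18 (SE 0.10, 0.885-fold, interval 0.763 to 1.03, limma unadjusted p = 0.103, adjusted p = 0.712). A dimmer probe, well above background on 18 arrays, gave -0.03 (SE 0.05), and the brightest gave -0.11 with the Cy5 signal alone. The brightest lies at 122903704 to 122903763 on the minus strand of chromosome 5.

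Myoz2, a Z-disc protein that binds the phosphatase calcineurin, ran from -0.42 through -0.01 to 0.30 in mHFD and from -0.90 through -0.02 to 0.34 in mLFD. A single mLFD array, mLFD 4, lay far below the rest, the next lowest of its group being at -0.28. The difference was 0.04 (SE 0.12, limma adjusted p = 0.940). Its sign turned without mLFD 4 (-0.04), under 3 other ways of processing, which are given with the limits, and without mLFD 4 and mLFD 5 together. The probe is placed on the minus strand of chromosome 3, from 122709486 to 122716527.

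Tpm3 encodes the tropomyosin of slow fibres and, from other promoters and exons, tropomyosins of non-muscle cells. Its 3 probes did not behave alike. The brightest, at 89904428 to 89904487 on the plus strand of chromosome 3, ran from -0.22 through 0.12 to 0.55 in mHFD and from -0.20 through -0.02 to 0.50 in mLFD. Its difference was 0.12 (SE 0.09, limma adjusted p = 0.750), and 0.05 with the Cy5 signal alone, with the scanner software's ratio and with array position in the model. The second brightest, at 89892985 to 89893044, ran from -0.62 through -0.13 to 0.31 in mHFD and from -1.11 through 0.20 to 0.75 in mLFD, with a difference of -0.17 (SE 0.19, limma adjusted p = 0.843). The third, at 89877669 to 89877728, gave -0.16 (SE 0.12, limma adjusted p = 0.768). So the sign of the Tpm3 difference depended on the probe, and with the mean of the 3 probes it was -0.07. Which transcripts each probe reads was not tested.

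Csrp3, the muscle LIM protein of the Z-disc, and Ankrd2, an ankyrin repeat protein known to rise with stretch, had higher means in mHFD. Csrp3 ran from -0.39 through -0.03 to 0.68 in mHFD and from -0.89 through -0.28 to 0.59 in mLFD. Its difference of 0.23 (SE 0.15, 1.18-fold, interval 0.95 to 1.46, limma adjusted p = 0.722) was the highest of the 10. Ankrd2 ran from -0.25 through -0.01 to 0.54 in mHFD and from -0.67 through 0.02 to 0.24 in mLFD, with a difference of 0.13 (SE 0.12, limma adjusted p = 0.812). The groups overlapped for both genes. With the position of the array on its slide in the model, Csrp3 gave 0.07 and Ankrd2 -0.03, while Ankrd2 gave 0.22 with the Cy5 signal alone and 0.08 with scaling between arrays. The mHFD arrays always lay at positions 1 and 3 and the mLFD arrays at 2 and 4. The probes lie on chromosome 7, minus strand, from 56086063 to 56087977, and on chromosome 19, plus strand, from 42118566 to 42118625.

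Tnnt1, Tnni1, Tnnc1 and Myl2 were lower in mHFD on 4 of the 5 slides. The size of the lower means in mHFD rested largely on slide 4. Within that slide the difference was -1.46 for Tnni1, -1.25 for Myl2, -1.03 for Tnnt1 and -0.78 for both Tnnc1 and Myl3. Within slide 2 it was positive for Tnnt1 (0.48), Myl3 (0.42), Myl2 (0.37) and Tnnc1 (0.34), and Tnni1 stood at -0.07. Slides 1 and 5 gave values between -0.14 and 0.12 for these 5 genes, and slide 3 gave -0.71 for Myl2 and -0.38 for Tnnt1. Without slide 4, an alternative chosen after seeing the data, the differences were -0.13 for Myl2, -0.09 for Tnni1, -0.08 for Atp2a2, -0.03 for Tnnc1 and -0.02 for Tnnt1, Myl3 turned to 0.15, and the median over the 10 genes was 0.02. Slide 4 carried mHFD 7 and mHFD 8 beside mLFD 7 and mLFD 8. Slide 2 held mLFD 4, and no fit left slide 2 out. Each slide held different mice, so a slide and its mice cannot be told apart.

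**Figure D2:**
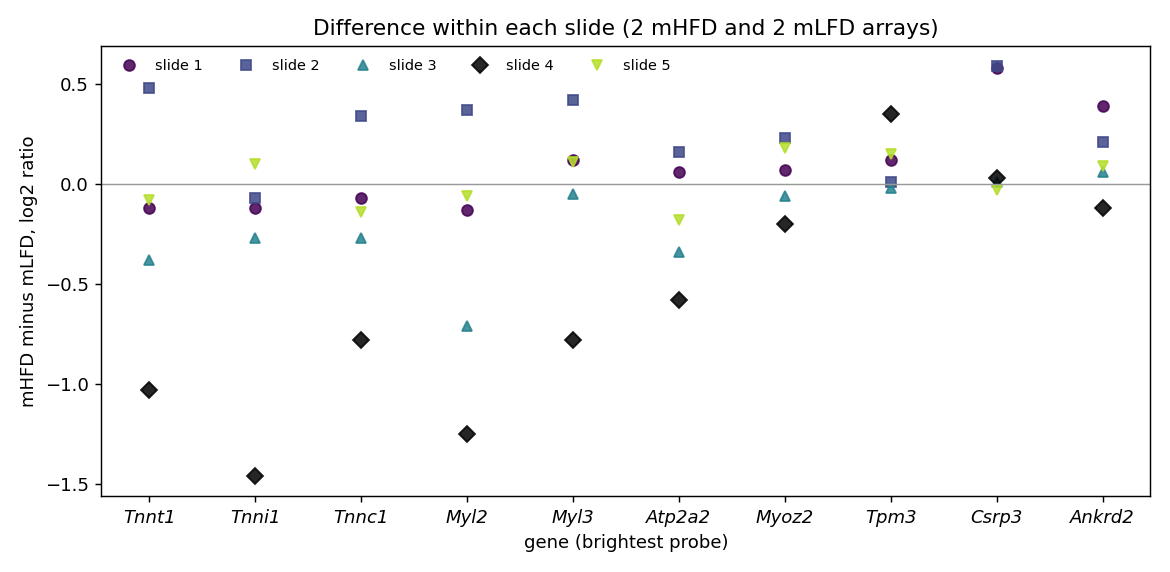
Difference between the groups within each slide (vertical axis, mHFD minus mLFD in log2 ratio, 2 arrays per group) for the 10 genes (horizontal axis). Slide 4, in black, holds the lowest value for the 7 genes from Tnnt1 to Myoz2, and slide 2 is above 0 for 6 of these 7.

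Single arrays stood apart across several of the genes at once. mLFD 4 had the lowest mean over the 10 genes, -0.66, and the lowest value of all 20 arrays for 6 of them: Tnnt1, Tnnc1, Myl3, Myoz2, Csrp3 and Ankrd2. mHFD 7 came next with a mean of -0.43 and was lowest for Tnni1 (-1.27), Myl2 (-1.11) and Atp2a2 (-0.31), and mHFD 8 had a Tnni1 value of -1.19. At the other end were mLFD 5, with a mean of 0.41 and a Tnnt1 value of 1.09, and mHFD 10, with a mean of 0.29 and a Tnni1 value of 0.93. High and low arrays thus occurred in both groups. The array of mLFD 4 had 17509 probes well above background, within the range of the others.

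**Figure D3:**
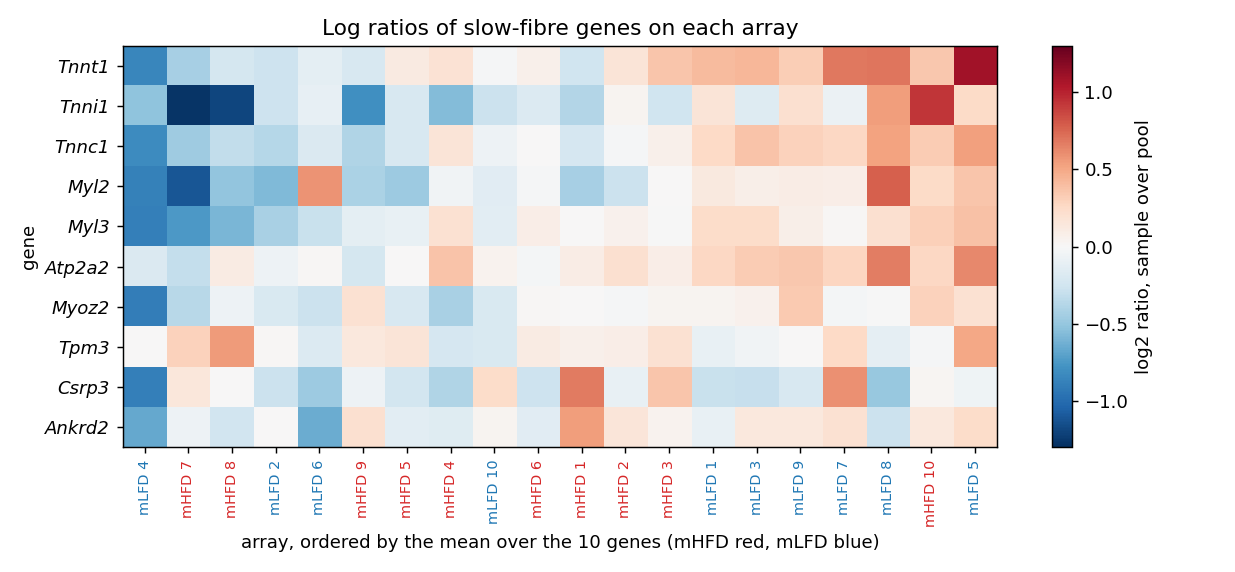
Log2 ratio to the pool (colour) of the 10 genes (rows) on the 20 arrays (columns, ordered by their mean over the genes). mLFD 4 at the left is below the pool for 9 of 10 genes and mLFD 5 at the right above it for 9 of 10, while Tpm3 does not follow the other rows.

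Leaving out mLFD 4 moved the differences of the 6 genes with a lower mHFD mean farther from 0. Tnnt1 then stood at -0.34, Tnnc1 at -0.28, Myl2 at -0.46 and Atp2a2 at -0.22, and these 4 genes had unadjusted p-values of 0.0313, 0.0266, 0.00898 and 0.0343 in limma, where 5.84% of all probes had one under 0.05. The positive differences did not grow: Csrp3 went to 0.16, Ankrd2 to 0.06 and Myoz2 to -0.04, and Tpm3 was again 0.12. None passed the adjustment over all probes in any of the 20 fits that left out 1 array. Leaving out mLFD 5 moved Tnnt1 and Atp2a2 the other way, to -0.13 each, and gave the brightest Tpm3 probe 0.18 with an unadjusted limma p of 0.0303. Leaving out mLFD 7 gave Csrp3 0.32 with an unadjusted p of 0.022 in limma.

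The genes varied together from array to array. Each mouse had its own array, so variation between mice and between arrays cannot be told apart. After removal of the group means, 40 of the 45 pairs had a Pearson r above 0 over the 20 arrays, with a median r of 0.54, and 23 pairs passed an adjusted p of 0.05 (two-sided permutation test within groups, 100000 draws, adjusted over the 45 pairs), 22 by Spearman's rho. The closest pair was Tnnt1 and Tnnc1, the tropomyosin-binding and calcium-binding subunits of 1 complex, with r = 0.94 and rho = 0.91. Their adjusted permutation p was 9e-05 and 0.00015 (raw p = 1e-05, the smallest the draws can give). Without mLFD 4 and mLFD 5, the arrays farthest from the Tnnt1 median, r was 0.92. Tnnc1 followed Myl3 with r = 0.92 and rho = 0.90 and Atp2a2 with r = 0.89 and rho = 0.89. Without mLFD 4 and mLFD 2, the arrays farthest from the Tnnc1 median, r was 0.86 and 0.87. All arrays share the reference pool. Pairs of genes outside the 10 were not counted, so whether the 10 were tied more closely than other genes was not tested. The mean of the 10 genes had r = 0.93 with both Tnnt1 and Tnnc1, genes that are part of that mean.

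**Figure D4:**
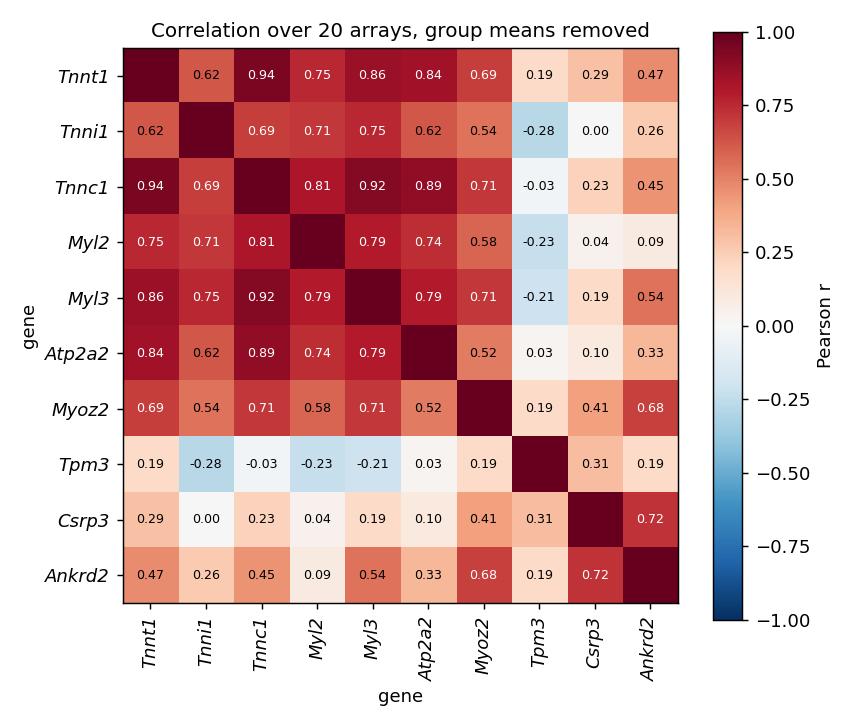
Pearson r over the 20 arrays with group means removed (colour and number) for each pair of the 10 genes. The block from Tnnt1 to Myoz2 runs from 0.52 to 0.94, Csrp3 and Ankrd2 reach 0.72 with each other, and the brightest Tpm3 probe stays between -0.28 and 0.31.

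Not all genes took part to the same degree. Myl3 passed in 7 of its 9 pairs, and Tnnt1, Tnni1, Tnnc1, Myl2 and Myoz2 in 6 each, while Atp2a2 passed in 5 and Ankrd2 in 3. Csrp3 passed only with Ankrd2 (r = 0.72, rho = 0.70, adjusted permutation p = 0.0019) and had r = 0.00 with Tnni1 and 0.04 with Myl2. Without mLFD 7 and mHFD 1, the arrays farthest from the Csrp3 median, its r with Ankrd2 was 0.64. Ankrd2 stood between, with r = 0.68 with Myoz2 and 0.54 with Myl3. Over standardised values, the first principal component held 57.8% of the variance with loadings of 0.32 to 0.40 for Tnnt1, Tnni1, Tnnc1, Myl2, Myl3, Atp2a2 and Myoz2, and the second held 19.7% with its largest loadings on Csrp3 (-0.56), Ankrd2 and Tpm3 (-0.48 each).

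How tightly the genes were tied depended on the extreme arrays, mLFD 4 above all. The median r was 0.68 within mLFD and 0.27 within mHFD, a difference that was not tested. Without mLFD 4 the median over all arrays was 0.35 with 16 pairs passing, and without mLFD 4 and mLFD 5 it was 0.33, again with 16 pairs. Tnnt1 and Myoz2, for example, had r = 0.69 over all arrays, 0.26 in mHFD and 0.84 in mLFD, and Tnnt1 and Ankrd2 had 0.47, -0.11 and 0.68. Without mLFD 4 and mHFD 7, the arrays farthest from the Myl2 median, Myl2 and Myoz2 went from 0.58 to 0.20 and Myl2 and Ankrd2 from 0.09 to -0.33. Tnnt1 and Tnnc1, in contrast, had r = 0.90 in mHFD and 0.96 in mLFD. With slide means removed the median r was 0.64 and the Tnnt1 and Tnnc1 pair stood at 0.95.

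For Tpm3 the probes again divided. The brightest had a median r of 0.03 with the other 9 genes and passed with none of them. The second brightest had a median r of 0.69 and passed with 7 of 9, reaching 0.93 with both Tnnt1 and Tnnc1. The third had 0.61 and passed with 6 of 9 (permutation test, adjusted over all pairs of a Tpm3 probe with another of the genes). These 2 probes followed each other (r = 0.86, rho = 0.85), whereas the brightest had r = 0.04 and -0.01 with them. With Myl3 the brightest probe had r = -0.21 over all arrays (rho = -0.29, adjusted permutation p = 0.50), -0.82 within mHFD and 0.28 within mLFD. With the second brightest probe standing for Tpm3, the median r over the 45 pairs was 0.68.

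**Figure D5:**
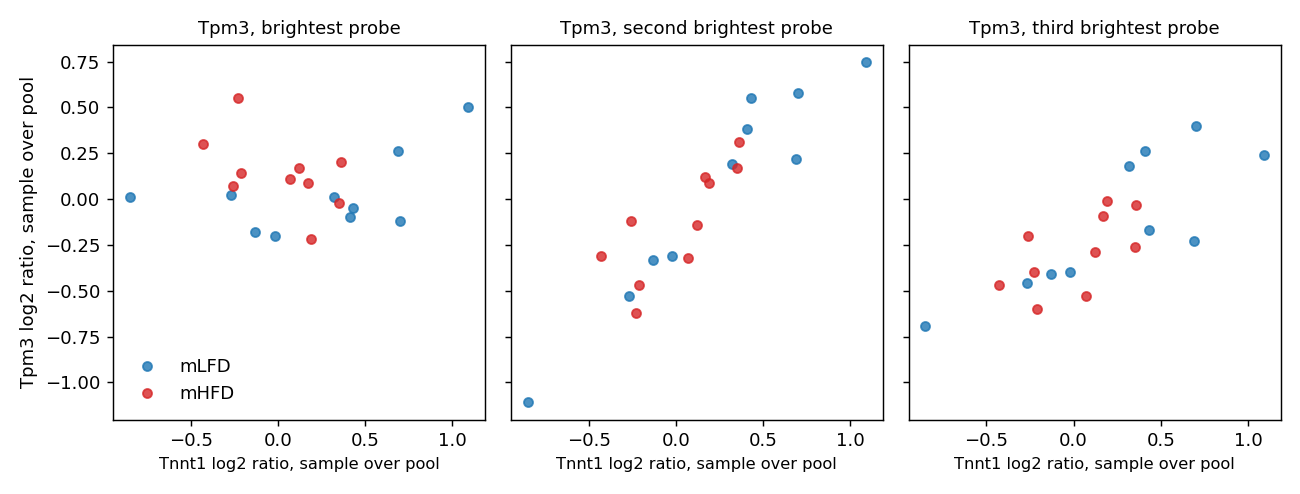
Log2 ratio of the 3 Tpm3 probes (vertical axes) against that of Tnnt1 (horizontal axes), 1 point per array. The second probe rises with Tnnt1 (r = 0.93 with group means removed), the third less tightly (r = 0.77), and the brightest shows little relation (r = 0.19).

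Because Tnnt1, Tnnc1 and Myl3 moved together, and Csrp3 and Ankrd2 formed a pair of their own, the 250 bases before the start of each are shown from RefSeq (GRCm38.p6), read 5′ to 3′ on the strand of the gene, with capitals on E-boxes and M-CAT cores found on either strand.
Tnnt1, chr7:4515976-4516225, minus strand: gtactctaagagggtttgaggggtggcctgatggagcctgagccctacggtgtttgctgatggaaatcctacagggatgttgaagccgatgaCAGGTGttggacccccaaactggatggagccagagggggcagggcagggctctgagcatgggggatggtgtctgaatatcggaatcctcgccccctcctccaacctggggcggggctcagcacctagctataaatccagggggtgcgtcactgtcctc
Tnnc1, chr14:31208062-31208311, plus strand: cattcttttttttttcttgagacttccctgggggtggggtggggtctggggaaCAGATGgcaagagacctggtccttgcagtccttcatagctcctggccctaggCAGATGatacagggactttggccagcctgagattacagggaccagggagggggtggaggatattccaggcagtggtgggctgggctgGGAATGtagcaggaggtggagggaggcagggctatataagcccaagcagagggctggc
Myl3, chr9:110763428-110763677, plus strand: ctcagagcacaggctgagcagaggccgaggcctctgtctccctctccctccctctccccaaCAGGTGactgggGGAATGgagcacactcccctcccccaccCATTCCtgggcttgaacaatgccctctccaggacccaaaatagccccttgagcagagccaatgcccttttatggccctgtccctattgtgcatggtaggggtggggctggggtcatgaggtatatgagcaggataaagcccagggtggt
Csrp3, chr7:48848052-48848301, minus strand: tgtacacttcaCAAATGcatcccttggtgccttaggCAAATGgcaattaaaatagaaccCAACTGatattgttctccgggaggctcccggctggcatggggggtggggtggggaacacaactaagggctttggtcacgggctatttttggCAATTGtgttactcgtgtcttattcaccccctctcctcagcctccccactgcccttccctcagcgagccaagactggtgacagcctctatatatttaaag
Ankrd2, chr19:42035777-42036026, plus strand: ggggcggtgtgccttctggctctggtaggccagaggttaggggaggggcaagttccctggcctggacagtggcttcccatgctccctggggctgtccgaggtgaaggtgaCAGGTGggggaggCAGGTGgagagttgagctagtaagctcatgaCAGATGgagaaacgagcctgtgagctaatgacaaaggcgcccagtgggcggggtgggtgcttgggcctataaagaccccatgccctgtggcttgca
The table of promoters held 13 starts for 9 of the 10 genes. The 2 Tnni1 windows overlap, so sites in their shared part count in both. Csrp3 has a second start, not shown above, with 4 E-boxes and 0 CCACCC in its window. An E-box (CANNTG, the kind of site bound by myogenic factors) was found in all 13 windows, and 66.2% of the 32851 windows of this length in the table hold one. The M-CAT core (CATTCC, a site of TEAD factors) was found once for Tnnc1, at GGAATG on the strand shown, and at 2 places for Myl3, in none of the other windows, and in 12.6% of all windows. A MEF2 motif was found only before Myoz2, next to 2 E-boxes, and 0.508% of all windows hold it. TATAAA was found for Tnnt1 and Ankrd2 and in 7.59% of all windows. CCACCC, on either strand, was found in 8 of the 13 windows, 3 times each for Tnnc1 and Myl3, and in 28.1% of all windows. The NFAT core GGAAA was found in 6 of the 13 windows and in 55.6% of all. The only overlap between motifs in these windows was 1 base shared by an M-CAT core and a CCACCC before Myl3. A match describes letters and not binding.

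Outside the 10 genes, those most like them in pattern were found by correlation with their mean over the arrays, group means removed, among 14964 genes with complete values. This is a description, and mLFD 4 weighs on it. Myh7, the slow myosin heavy chain, came first with r = 0.87 (0.70 without mLFD 4 and mLFD 5), then Nom1 with 0.83 (0.73) and Efcab4a with 0.75 (0.68), which was well above background on 11 arrays. Gm10501 and Myh7b, a further myosin heavy chain of slow and heart muscle, had 0.73 each (0.29 and 0.49), Dipk1b 0.70 (0.64) and Myh2, the heavy chain of fast oxidative fibres, 0.69 (0.36). Sun1 had 0.68 (0.52), and Arhgef5 and Cdip1 0.67 each (0.47 and 0.56). At the other end were Arl6 (-0.74, and -0.70 without the 2 arrays) and Mmab (-0.73 and -0.64). With them were 3 transcripts without a gene symbol (-0.74, -0.73 and -0.71). Without the 2 arrays these 3 stood at -0.47, -0.40 and -0.40.

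None of the other genes of the slow programme passed the adjustment. Of 16 slow contractile and calcium genes 15 were tested, 7 with a higher and 8 with a lower mean in mHFD, and their median difference was -0.03. Over all probes 48.4% had a lower mean. Pln, whose product restrains the pump, was not well above background on any array. Myh7 differed by -0.43 (SE 0.22, limma unadjusted p = 0.0699, adjusted p = 0.700) and the light chain Myl6b by -0.19 (SE 0.09, limma unadjusted p = 0.0457, adjusted p = 0.688). Only Myl6b of the 15 was under 0.05 unadjusted, and 3.11% of all probes were so and lower in mHFD. Myh7 had a wider spread than its difference, with a mean of -0.51 ± 0.43 (SD, n = 10) in mHFD and of -0.08 ± 0.66 (SD, n = 10) in mLFD. Of the other heavy chains, Myh2 differed by 0.05 and Myh1, of fast fibres, by -0.06, and Myh4, of the fastest fibres, by 0.19 (SE 0.08, limma unadjusted p = 0.0271, adjusted p = 0.688).

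Of 26 regulators of the slow programme 23 were tested, 15 with a higher and 8 with a lower mean, with a median of 0.04 and 0 past the adjustment. Unadjusted, 1 was under 0.05 in each direction, near the 3.11% lower and 4.04% higher over all probes. Nfatc2, a transcription factor that calcineurin activates, differed by -0.34 (SE 0.10, limma unadjusted p = 0.00261, adjusted p = 0.677), and Ppargc1a, a coactivator of mitochondrial and slow-fibre genes, by 0.34 (SE 0.13, limma unadjusted p = 0.0141, adjusted p = 0.688). Over the arrays each had r = -0.24 with Tnnt1. Of 16 stretch and Z-disc partners 15 were tested, 8 higher and 7 lower, with a median of 0.01. The giant thin-filament protein gene Neb differed by 0.39 (SE 0.18, limma unadjusted p = 0.0392). The filamin Flnc differed by 0.23 (SE 0.11, limma unadjusted p = 0.044), and both had an adjusted limma p of 0.688. These 2 were the only partners under 0.05 unadjusted, both higher in mHFD, beside 4.04% of all probes.

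Each slow version was also set against its fast counterpart on the same array, where a scaling common to the array cancels. These are values with no test. The median over the 8 differences, mHFD minus mLFD, was -0.21, and it was -0.07 without slide 4. Tnni1 minus Tnni2 averaged -0.71 ± 0.73 (SD, n = 8) over mHFD arrays and -0.28 ± 0.34 (SD, n = 8) over mLFD arrays, a difference of -0.43. Tnnt1 minus Tnnt3 differed by -0.32, Myl3 minus Myl1 by -0.31, Tnnc1 minus Tnnc2 by -0.23, Atp2a2 minus Atp2a1 by -0.18 and Myl2 minus Mylpf by -0.17. Myoz2 minus Myoz1 differed by 0.10 and Tpm3 minus Tpm1 by 0.03. The fast partners themselves spread less than their slow versions for 7 of the 8 pairs. Fast probes lacked values on arrays of slide 2: on all 4 of its arrays for Tnni2, Myl1, Myoz1 and Tpm1, on 2 for Tnnt3 and on 1 for Tnnc2. Slide 2 was where most slow genes were higher in mHFD, and it held mLFD 4. On the arrays that were left, Myl3 alone differed by -0.15 in place of -0.04, Tnni1 by -0.44 in place of -0.36 and Tnnt1 by -0.29 in place of -0.22, so the pair values and their median rest in part on this loss. Mylpf, the fast regulatory light chain, had a difference of -0.18 (SE 0.07, limma unadjusted p = 0.0115, adjusted p = 0.688).

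Other cell types of the muscle were compared with Tnnt1 over the arrays, in 9 relations adjusted together, and none passed (permutation test, smallest adjusted p = 0.79). The mean of the 5 tendon markers had r = -0.36 (rho = -0.32), that of the 3 tested erythroid markers 0.28 (rho = 0.12), that of the 6 adipocyte markers -0.20 (rho = -0.08) and that of the 11 fast fibre markers -0.06 (rho = -0.20). The number of probes well above background had r = -0.11 (rho = -0.23). All 6 adipocyte markers had a lower mean in mHFD, with a median difference of -0.34. So did 4 of 5 tendon markers, with a median of -0.16, beside 48.4% of all tested probes. None passed the adjustment (limma). Unadjusted, 0 adipocyte markers were under 0.05, and 2 tendon markers were, both lower in mHFD. Over all probes 3.11% were lower and 4.04% higher at that threshold. The mean log ratio of the adipocyte markers ran from -0.75 to 0.27 in mHFD and from -0.85 to 0.74 in mLFD, and that of the tendon markers from -0.41 to 0.16 and from -0.29 to 0.11. Their part in the slow-fibre values was tested no further.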

How the data were processed

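Quadriceps RNA of 20 mice was measured on 2-colour arrays. Per spot, the deposited scanner output gives the intensity in each dye and the scanner software's own log10 ratio (Cy5 to Cy3), from Agilent Feature Extraction 10.7.3.1 per the file headers, which also give probe positions in mm9. The authors also deposited a table of processed values, read here as log2 because the lowest correlation of a column with the scanner's Cy5 median signal on the log2 scale was 0.99. Each of its columns has a median of 7.54, and its centring and direction are not given in the sources used here.

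From the scanner files, mean signals were corrected with normexp (offset 50) and log2 ratios normalized by loess within arrays, with control and outlier spots at weight 0. These spots were then dropped and the spots of a probe averaged. A probe counted as well above background where any kept spot was. This definition was settled on after counts under other definitions had been seen. Names were updated through RefSeq transcripts of GRCm38, which matched 27234 of 39429 probes. Groups were compared with limma 3.58.1 in R 4.3.3, two-sided, with Benjamini-Hochberg adjustment. Pairs of genes were tested by 100000 permutations. The steps were tested on simulated data.

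The genes and lists were chosen with earlier results of these data known. Named were all 10 genes, their fast counterparts, the myosin heavy chains, programme genes of smallest p or largest difference, the 10 most and 5 least like genes, and single outlying arrays. Alternatives covered background correction, normalization, filters, saturated spots, slide, position, replicate number, probe choice and arrays left out.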

Additional observations from a re-analysis of the deposited data

Results flagged for a closer look

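The slow-fibre genes, their fast counterparts, the myosin heavy chains, the genes most and least like them and the named programme genes were also examined for single arrays far from the rest of their group, as the gap to the nearest other array divided by the range of the group, and set against Dixon's limit for the number of arrays with a value, 8 to 10. Of 88 combinations of probe and group, 7 lay past the limit, where 1 in 20 would be about 4.4. The number 4.4 is not a fair measure of chance here. The most and least like genes were picked from these data by a pattern on which mLFD 4 weighs, and the combinations share arrays. For the 10 slow-fibre genes 1 of 28 combinations lay past the limit: Myoz2 on mLFD 4, at -0.90 with the next array at -0.28, a share of 0.503. The same array was high for the 3 transcripts without a gene symbol that ran against the slow-fibre genes, at 1.49, 1.38 and 1.35 (shares of 0.797, 0.744 and 0.650), and low for Gm10501 (-0.41, share 0.497). Arhgef5 was high on mHFD 2 (0.19, share 0.545) and Flnc on mHFD 6 (0.65, share 0.545).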

How the results depend on the processing

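No slow-fibre gene passed the adjusted threshold under any of the 18 other settings or the 20 fits without 1 array, where they were run. The number with an unadjusted p under 0.05 was 2 with scaling between arrays (Myl2 and Atp2a2, beside 5.99% of all probes), 1 in the authors' deposited table (Myl2, beside 3.1%) and 2 without mLFD 4 and mLFD 5 (Myl2 and Tpm3, beside 6.68%), and 0 to 4 when single arrays were left out, the 4 without mLFD 4 (beside 5.84%). The Myoz2 difference turned to -0.04 with the scanner software's log ratio, -0.08 with Cy5 alone, -0.06 with position as a covariate and -0.02 without mLFD 4 and mLFD 5, Ankrd2 to -0.03 with position, Tpm3 to -0.07 with the mean over its probes, and Myl3 to 0.15 without slide 4. Without single arrays Myoz2 ranged from -0.04 to 0.09, and Myl3 from -0.13 to 0.04, above 0 without mLFD 5 (0.01), mHFD 7 (0.04) or mHFD 8 (0.02). The median difference ranged from -0.18 to -0.05, that against the fast counterparts from -0.30 to -0.15, and the median r from 0.35 to 0.59 with 16 to 24 pairs past the threshold. The median r was 0.87, with all 45 pairs past the threshold, when arrays were only median-centred, 0.64 with slide means removed, 0.68 with the second brightest Tpm3 probe and 0.33 without mLFD 4 and mLFD 5; the causes were not tested. Without slide 4, Myl2 minus Mylpf turned to 0.05 and Tpm3 minus Tpm1 to -0.03, and with Cy5 alone Myoz2 minus Myoz1 turned to -0.11 and Tpm3 minus Tpm1 to -0.01, while Tnni1 minus Tnni2 moved to -0.83.

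The groups share replicate numbers, which the labels do not tie to litters or days. Same-numbered arrays deviated together with r over 0.1 in 8 of 10 pairs (range -0.01 to 0.36). Each such pair also lay on the same slide at neighbouring positions, so these values cannot tell a shared number from a shared slide. Arrays of the same slide with different numbers were not compared. With the replicate block the differences were as without it by construction, and the smallest unadjusted p was 0.0641 (limma, Csrp3, adjusted p = 0.500), with 0 genes past either threshold. Litters are not labelled, so p-values may be too small, and the number of arrays sets what could be seen: with a standard error of 0.20, a Tnni1 difference as low as -0.78 stayed inside the interval.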
